A study of Mus musculus with 5 samples.

Results

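DN3 thymocytes were compared with DN2 thymocytes, the stage that precedes them, over all genes that 1 Affymetrix array of each population could read. The members were 2 of the 5 arrays of the series, taken by their labels. Both populations were sorted from blast enriched thymocytes of male C57BL6 mice aged 5 weeks, were lineage negative and carried CD24 and CD25. They differed in CD44, which was high in DN2 and low in DN3. The other 3 arrays were DN1 (lineage negative, CD24 positive, CD25 negative, CD44 high), preDP (lineage negative, CD24 positive, CD25 negative, CD44 low) and DP (CD4 and CD8 positive, sorted from total thymocytes). Thymuses of 10 mice went into the series, and the sources used here do not say whether their RNA was pooled. With 1 array per population there is no replicate check, so no p-value is given and every fold compares 2 arrays.

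As background, T cells develop in the thymus from progenitors that still hold other fates. At the double negative 2 stage the cells express CD25 and still the stem cell factor receptor Kit. At the double negative 3 stage they recombine the T-cell receptor beta locus with the Rag recombinase and place the beta chain on the surface with the invariant chain pre-T alpha and CD3. Notch signals and E proteins are known to drive these steps, and factors of stem and myeloid cells such as Lyl1 and PU.1 (the product of Spi1) are known to be shut off.

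With a floor set under the signals, as described below, Ptcra, Cd3d and Rag1 were among the highest ratios and Lyl1 was the lowest. The promoters of these 4 genes, which mark the step, are therefore shown. They are the 250 bases before the gene's start, 5′ to 3′, from RefSeq on GRCm38.p6. Capitals mark the E-boxes CAGCTG and CACCTG, which E proteins and other helix-loop-helix factors can bind, and TGGGAA, the core of sites for the Notch partner RBPJ, each searched on both strands.
Ptcra, chr17:46763713-46763962, minus strand: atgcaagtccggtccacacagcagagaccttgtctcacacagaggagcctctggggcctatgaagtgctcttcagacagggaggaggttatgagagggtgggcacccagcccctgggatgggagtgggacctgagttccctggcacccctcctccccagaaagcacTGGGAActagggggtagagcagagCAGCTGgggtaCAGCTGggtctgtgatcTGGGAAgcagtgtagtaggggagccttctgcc
Cd3d, chr9:44981536-44981785, plus strand: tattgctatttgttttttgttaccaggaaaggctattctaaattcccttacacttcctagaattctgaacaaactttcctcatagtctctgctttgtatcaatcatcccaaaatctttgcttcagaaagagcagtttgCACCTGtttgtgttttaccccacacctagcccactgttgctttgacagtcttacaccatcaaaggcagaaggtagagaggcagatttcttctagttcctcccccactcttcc
Rag1, chr2:101649533-101649782, minus strand: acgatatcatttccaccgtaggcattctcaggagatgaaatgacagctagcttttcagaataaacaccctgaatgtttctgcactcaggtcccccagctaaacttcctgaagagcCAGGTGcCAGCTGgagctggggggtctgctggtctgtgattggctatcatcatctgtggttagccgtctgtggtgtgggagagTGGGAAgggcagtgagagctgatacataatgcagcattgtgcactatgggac
Lyl1, chr8:84701207-84701456, plus strand: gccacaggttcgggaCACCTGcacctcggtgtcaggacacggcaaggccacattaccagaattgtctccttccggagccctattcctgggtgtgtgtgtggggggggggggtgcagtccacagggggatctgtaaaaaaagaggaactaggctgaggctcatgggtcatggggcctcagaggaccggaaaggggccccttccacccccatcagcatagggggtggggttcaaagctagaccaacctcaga

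Ptcra held 2 matches to CAGCTG, 60 and 49 bases before the start, and 2 to TGGGAA. Rag1 held 1 of each motif, and Cd3d and Lyl1 held CACCTG alone. No match overlapped another in these windows. A promoter was found for 71 of 99 genes higher in DN3, 152 of 193 lower and 4026 of 4894 measured in DN2 or DN3. An E-box of either kind stood in 36.6% of the higher, 35.5% of the lower and 28.3% of the measured promoters, and in 27.7% of all 32851 in the table. For TGGGAA the shares were 23.9%, 23.7%, 24.1% and 21.6%. Higher and lower genes thus held these letters about equally often, and a match is no evidence of binding.

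The deposited signals are linear and of arbitrary unit. A floor of 130.4, the median of all gene probe set values, was set under them before ratios were taken, and where one value was no higher than the floor the fold is a lower bound, written as at least. Of 8251 genes, 4894 were above the floor on either array and 4411 on both. Among those 4894 genes, 99 (2.02%) passed 2-fold upward in DN3 and 193 (3.94%) downward, together 5.97%. The median log2 ratio over these genes was 0.00, and 83.8% of the genes above the floor on both arrays were within 1.5-fold. Higher genes included 25 whose DN2 value was at or under the floor, and lower genes 59 whose DN3 value was. At 4-fold the counts were 20 higher and 43 lower, and at 8-fold 4 and 15.

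The 2-fold limit fell within a continuous range. Zfp322a, with signals of 159 in DN2 and 319 in DN3, was just inside it, and Polb, with 192 and 381, just outside. On the lower side Gyg (797 and 398) was inside and Parp16 (441 and 221) outside. Genes with a second probe set gave the only internal error. Between the 2 brightest probe sets of each gene, where both could be measured, the difference in log2 ratio had an SD of 0.44 over 597 genes. That SD was 0.49 among the 199 genes with the dimmest second probe set and 0.37 among the 199 with the brightest, so ratios of dim genes carry more error. It leaves out variation between arrays, sorts and mice. Of 21 such genes past 2-fold by the brightest probe set, 10 had a second probe set also past 2-fold in the same direction. In 2 the second probe set had the opposite sign, Rbms1 (log2 ratios of -1.30 and 0.75) and Capg (-1.02 and 1.10).

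**Figure D1:**
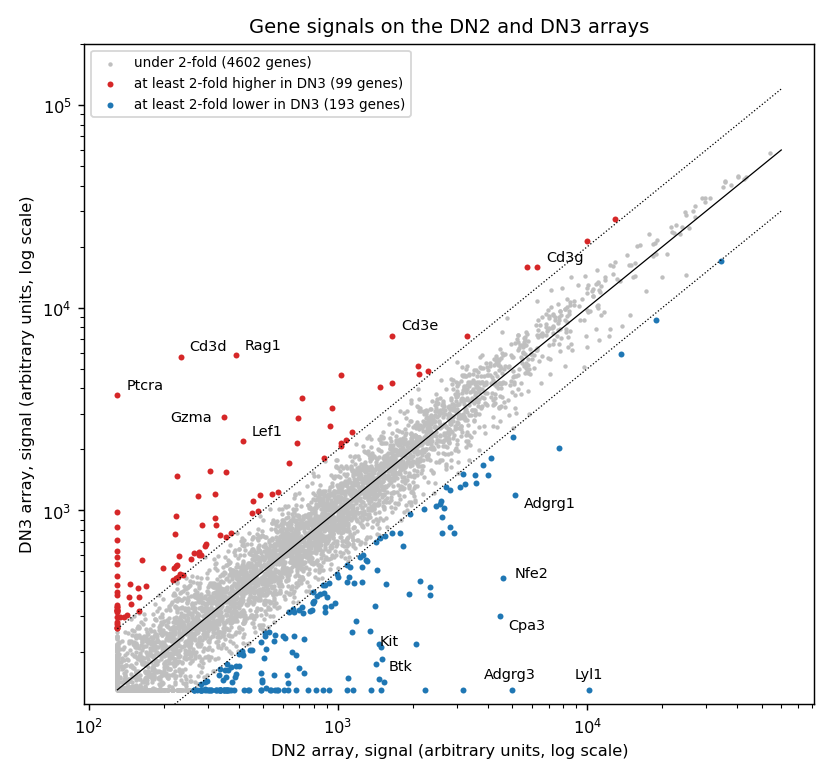
Signal of each gene above the floor on either array, DN2 on the x axis and DN3 on the y axis, both log scales in arbitrary units, with values under the floor drawn at 130.4. The solid line marks equal signal and the dotted lines 2-fold. 99 genes lie above the upper dotted line and 193 below the lower, with Ptcra, Cd3d and Rag1 farthest above and Lyl1 farthest below.

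The labels were checked against the genes of the sort and of the stages. The CD25 gene Il2ra read 1156 in DN2 against 439 in DN3, and no more than 65.8 on the other 3 arrays. It was thus above the floor on the arrays gated as CD25 positive and 2.64-fold lower in DN3. Cd24a was 9810 in DN2 and 14356 in DN3. The 3 probe sets of Cd44 read at most 27.5 in DN2 and 11.4 in DN3, under the floor, so the gate that separates the populations could not be checked by its own gene. Ptcra, Cd3d and Rag1 were high in DN3 and Lyl1 in DN2, as described next. Cd8a was at or under the floor on both arrays, and Cd4 was 27.9 in DN2 and 132 in DN3.

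Genes of the pre-T-cell receptor were the largest differences upward. Ptcra, which encodes pre-T alpha, read 17.0, 108, 3692, 1181 and 945 on the arrays in stage order (DN1, DN2, DN3, preDP, DP), so the DN3 array was the highest and both earlier arrays were under the floor. In DN3 it was at least 28.3-fold higher than in DN2. Cd3d, a signalling chain of the CD3 complex, read 335, 234, 5740, 3181 and 6493 in the same order and was 24.5-fold higher in DN3. Its second probe set stayed at or below 11.9 on all arrays. The neighbouring CD3 genes differed less. Cd3e had 1648 in DN2 and 7264 in DN3, 4.41-fold, and Cd3g 6301 and 15850, 2.52-fold. Cd3g was already higher in DN2 (6301) than in DN1 (582), whereas Cd3d was not (234 and 335). Cd247, the zeta chain, was 1.76-fold higher, at 439 and 773.

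Variable segments of the receptor loci read differently by probe set. Trbv13-2, a beta variable segment, was 273 in DN2 and 1184 in DN3, 4.33-fold by a probe set of a gene family and 1.79-fold by its plain probe set (320 and 574). Trbv1 was bright at 27092 and 27971 by a shared _s_at probe set, but its plain probe set read 11.5 and 471, at least 3.61-fold higher. Of the gamma segments, Trgv4 was 24961 in DN2 and 14496 in DN3, a log2 ratio of -0.78, and Trgv1 was 6958 and 9748. In all, 4 of the 8 listed members of the receptor complex reached 2-fold upward and none downward, and the median log2 ratio was 1.07 against 0.00 over all genes. Over all measured genes 2.02% were higher and 3.94% lower, and every later list count is to be read beside these shares. With plain probe sets alone the median was 1.59.

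Both recombinase genes were higher in DN3, while DNA repair genes that take part in the joining were split. Rag1 read 40.5, 388, 5816, 3347 and 17836 in stage order, a log2 ratio of 3.90 between DN3 and DN2. Its second probe set was under the floor on both arrays. Rag2, its partner, was 234 in DN2 and 486 in DN3, 2.08-fold. Dntt, which adds untemplated bases at the joints, was bright on both arrays, at 17724 and 23181 (log2 0.39). Its plain probe set read 2104 and 6349, 3.02-fold higher, and the mean over probe sets gave a log2 ratio of 0.83. The end-joining genes Xrcc5 and Xrcc6 had log2 ratios of 0.37 and 0.50. Prkdc, the DNA-dependent kinase, had -0.88, and the checkpoint kinase gene Atm was 281 in DN2 and 139 in DN3, 2.03-fold lower. Of 9 measured members 2 passed 2-fold upward and 1 downward, and the median was 0.37. When the floor was raised to the 65th percentile, Rag2 had a log2 ratio of 0.52 and Atm, with both values at the floor, one of 0.00. Rag2 and Atm were also under 2-fold with an added constant, and Atm with either rescaling of the arrays.

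Notch genes were mixed, with Dtx1 and Notch3 higher, Il2ra lower, and Notch1, Rbpj, Mfng and Rfng near level. Notch1 was 7325 in DN2 and 6926 in DN3, and Notch3 682 and 2152, 3.16-fold higher. Dtx1, a ubiquitin ligase gene of the pathway, read 163, 227, 1487, 222 and 192 in stage order, which makes it high on the DN3 array alone. The DN3 signal was 6.56-fold that of DN2. Hes1, a repressor, was 1119 in DN2 and 1853 in DN3 (log2 0.73), and Myc 597 and 1014 (log2 0.77), both under 2-fold. Rbpj, which encodes the DNA-binding partner of Notch, had a log2 ratio of -0.13, and the glycosyltransferase genes Mfng and Rfng had -0.11 and 0.01. Of 11 measured members 3 passed 2-fold upward, Ptcra being the other one since the list holds it as a target, and 1, Il2ra, downward. Their median was 0.01, but 0.73 with the floor at the 65th percentile.

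E protein genes were close to level, and an inhibitor gene was not. Tcf12 (HEB) was 2386 in DN2 and 3454 in DN3 and Tcf3 (E2A) 264 and 319, log2 ratios of 0.53 and 0.27. Tcf4 had -0.28. Id3, whose product binds and blocks E proteins, was 106 in DN2, under the floor, and 825 in DN3, at least 6.33-fold higher, and it stood at 1304 in preDP and 1917 in DP. Id2, an inhibitor of the same family, was 4370 in DN1, 287 in DN2 and 176 in DN3, a log2 ratio of -0.70. The Id genes therefore lay in opposite order over the 2 arrays. Id2 was under 2-fold, however, and its log2 ratio was 0.00 with the floor at the 65th percentile.

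T-lineage transcription factor genes were higher for 5 of 14 measured members and lower for none, with a median of 0.36. The shares over all measured genes were 2.02% higher and 3.94% lower. The count was 2 with the floor at the 65th percentile and 3 with an added constant or with the mean over probe sets. Egr1 was under 2-fold in all 3 cases, Ets1 in the last 2, and Ets2 with the higher floor. Lef1, a partner of beta-catenin, was 414 in DN2 and 2201 in DN3, 5.31-fold, and its second probe set read 50.5 and 952. Spib, an Ets family gene, had 1030 in DN1, 102 in DN2, 634 in DN3 and at most 25.7 on the later arrays, at least 4.86-fold higher in DN3. The second Spib probe set was under the floor on both arrays, and the log2 ratio was 0.90 with the floor at the 65th percentile. Ets1 (335 and 759) and Ets2 (230 and 596) were 2.26-fold and 2.59-fold higher, and the immediate early factor gene Egr1 (120 and 298) at least 2.29-fold. Gata3, a factor needed from the earliest T-cell stages, was level at 1448 and 1517, and Gfi1 and Myb had log2 ratios of 0.37 and -0.30. Satb1, a chromatin organiser, had 0.85.

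**Figure D2:**
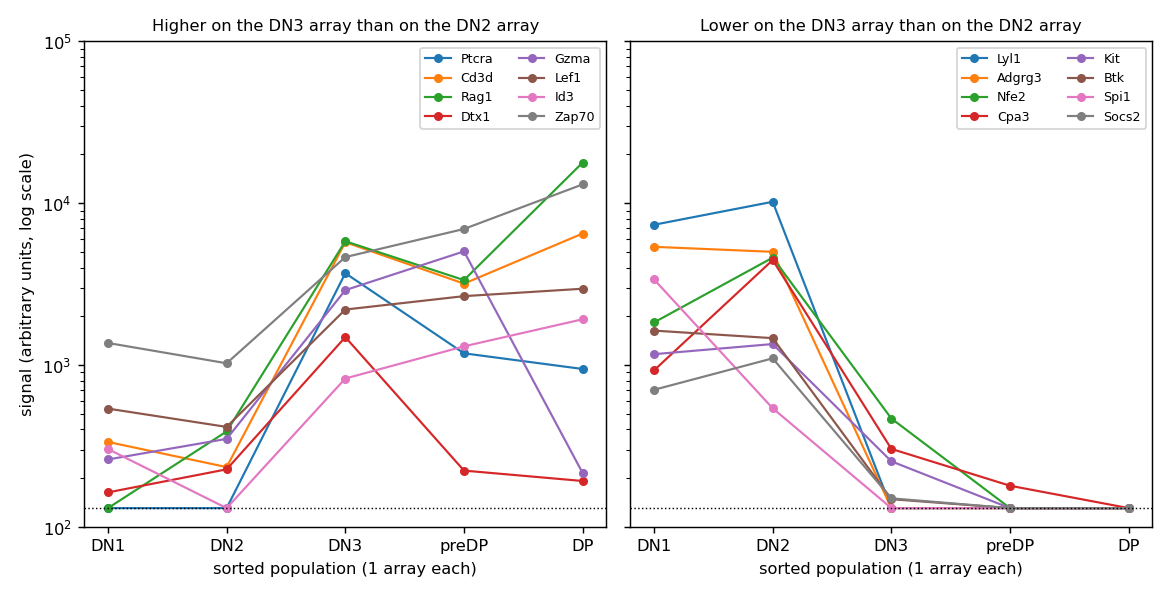
Signal of 16 genes on the 5 arrays in stage order, log scale in arbitrary units, with values under the floor drawn at the dotted line of 130.4. In the left panel Ptcra and Dtx1 are highest in DN3 (3692 and 1487), while Rag1 and Zap70 are highest in DP. In the right panel Lyl1 stands at 10202 in DN2 and lies at the floor line in DN3, preDP and DP.

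Progenitor transcription factor genes included the largest ratio downward between floored signals. Lyl1, a basic helix-loop-helix factor of blood progenitors, read 7355, 10202, 67.1, 116 and 93.8 in stage order. Both early arrays were high and all 3 later arrays under the floor, and DN3 was at least 78.2-fold lower than DN2. A second Lyl1 probe set gave 2642 in DN2 and 12.1 in DN3. Nfe2, an erythroid and megakaryocyte factor gene, was 4606 and 467, 9.87-fold lower. Spi1 was 540 in DN2 and 78.8 in DN3, at least 4.14-fold lower, and was 3380 in DN1.

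Mycn (574 and 114), Gfi1b (358 and 118) and Hhex (355 and 46.0), all factor genes of early blood cells, were at least 4.40-fold, 2.75-fold and 2.72-fold lower. Cebpb was 891 and 336, 2.65-fold lower. Other progenitor factors were near the floor in DN2 already, so that little difference could be seen: Lmo2 was 216 there, Cebpa 168 and Gata2 145. Zfpm1 (FOG-1) was level at 1518 and 1615. In total 7 of 15 measured members were at least 2-fold lower and none higher, with a median of -0.80. Of all measured genes 3.94% were lower and 2.02% higher. With the floor at the 65th percentile 3 were lower, and Spi1, Mycn, Gfi1b and Hhex had log2 ratios of -0.67, -0.76, -0.08 and -0.07. Tal1, Gata1, Mef2c, Meis1, Hoxa9 and Fli1 were at or under the floor on both arrays.

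Receptors of progenitors followed in part. Kit read 1166, 1347, 254, 123 and 36.8 in stage order, 5.30-fold lower in DN3 than in DN2. Cd93, a surface glycoprotein of early progenitors, was 2139 and 447, 4.79-fold lower, and Cd34 329 and 41.3, at least 2.53-fold. The interleukin 3 receptor gene Il3ra was 387 and 150, 2.58-fold lower. Flt3 was 315 and 390 by its brighter probe set and 194 and 37.3 by the other, which points the opposite way. Csf3r was 367 and 553, with its other probe sets under the floor. Of 9 measured members, 4 were lower and none higher, beside 3.94% and 2.02% of all measured genes. The list's median was -0.67. With the floor at the 65th percentile 2 were lower. Cd34 had a log2 ratio of -0.67 with the mean over probe sets, and Il3ra one of -0.96 with an added constant.

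Of 13 measured signalling genes shared with B and myeloid cells, 5 were at least 2-fold lower in DN3 and 4 lay above a log2 ratio of 0. Btk, a Tec family kinase gene, was 1465 in DN2 and 148 in DN3, 9.89-fold lower. Lat2 was 1501 and 184, 8.15-fold lower, and at least 2.06-fold by its dimmer probe set. The phospholipase gene Plcg2 was 1491 and 212, 7.04-fold lower. Tyrobp, the adaptor DAP12, was 1362 and 82.0, at least 10.4-fold lower. Inpp5d, the phosphatase SHIP, was 635 and 314, 2.02-fold, and under 2-fold with either rescaling. None of the 13 was 2-fold higher, and the median was -0.70.

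Genes of the proximal T-cell receptor signal were split. Zap70, the kinase that binds phosphorylated CD3 chains, was 1025 in DN2 and 4644 in DN3, 4.53-fold higher, and its second probe set read 284 and 1305. Another Zap70 probe set, dim at 168 and 251, was 1.49-fold higher. Syk, the related kinase, was 2043 and 1098, a log2 ratio of -0.89. The adaptor gene Lat was 243 and 410 (log2 0.76), while Plcg1 was level at 170 and 174. Sh2d2a, a T-cell adaptor, was 1028 and 2083, 2.03-fold higher, and the Src family kinase gene Fyn 530 and 252, 2.10-fold lower. Both lost the 2-fold size (Fyn also with quantile normalisation) when a constant was added in place of the floor, at log2 ratios of 0.95 and -0.84. The proximal list had 18 measured members, 2 of them past 2-fold upward and 1 downward, and a median of 0.04.

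T-cell surface genes fell on both sides. Of 16 measured members 6 were at least 2-fold higher and 4 lower, beside 2.02% and 3.94% of all measured genes. The median was 0.08, or 0.62 with the floor at the 35th percentile. With the floor at the 65th percentile 2 were higher and 2 lower. Ly6d was 5742 in DN2 and 15836 in DN3, 2.76-fold higher, and Thy1 9968 and 21287, 2.14-fold. The costimulatory gene Cd28 (44.1 and 332) and its neighbour Ctla4 (55.1 and 336), an inhibitory receptor, were at least 2.55-fold and 2.57-fold higher. Ctla4 was at most 88.1 on the other arrays, whereas Cd28 was 617 in preDP and 1432 in DP. The inhibitory receptor gene Pdcd1 was 89.1 and 316. Cd8b1 was 19.4 in DN2 and 319 in DN3. On the lower side were the leukocyte genes Cd53 (1922 and 387), Cd52 (1403 and 336), Cd7 (434 and 73.9) and Cd160 (350 and 81.8).

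Of 22 measured cytokine signalling genes, 7 were at least 2-fold lower and 2 higher, beside 3.94% and 2.02% of all measured genes. The median was -0.51. With the floor at the 65th percentile 4 were lower and 1 higher, and with an added constant 3 and 0. Socs2, a feedback inhibitor induced by STAT5, was 1099 in DN2 and 150 in DN3, 7.33-fold lower, and Il4ra 559 and 70.9, at least 4.28-fold. Il7r, the receptor chain for interleukin 7, was 1538 and 748, 2.06-fold lower. Jak2, Stat4 and Il10ra were 2.16-fold, 2.24-fold and 2.06-fold lower, and Stat3 had a log2 ratio of -0.99. Socs1 (575 and 1229) and Socs3 (226 and 536) were instead 2.14-fold and 2.37-fold higher, so the SOCS genes were split. Pim1, a kinase gene induced by cytokines, was 2823 and 832, 3.39-fold lower, with a log2 ratio of -0.34 by its dimmer probe set. Bcl2, a survival gene, was 888 and 428, 2.08-fold lower by its brightest probe set, and its other probe sets had log2 ratios of -1.16 and -0.11.

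Of the homing and adhesion list 12 of 27 genes on the array were measured. Itgb4, an integrin chain of epithelial attachment, was 225 in DN2 and 937 in DN3, 4.17-fold higher, and elsewhere no more than 106. Itgb7 was 1176 and 285, 4.13-fold lower, and its partner Itga4 402 and 172, 2.34-fold lower. Itgb1 and Selplg were level. The chemokine receptor genes Ccr9 (73.8 and 218) and Cxcr4 (727 and 914) had log2 ratios of 0.74 and 0.33.

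Cell cycle genes were slightly lower in DN3 as groups. Of 33 measured G2 and mitosis genes, 30 had a log2 ratio below 0 and 3 above, with a median of -0.31, and of 30 S phase genes 20 were below 0, with a median of -0.17. Over all measured genes 2428 were below 0 and 2466 above. Mki67 was 4128 in DN2 and 1818 in DN3, 2.27-fold lower, and Kif23 and Ttk were 2.19-fold and 2.03-fold lower. The Mki67 log2 ratio was -0.59 with the mean over probe sets, and Ttk was under 2-fold with either rescaling. None of the S phase genes was 2-fold apart. The antiproliferative genes Btg1 (292 and 670) and Btg2 (1476 and 4057) were 2.30-fold and 2.75-fold higher, whereas Ccnd2, Ccnd3 and Cdk4 had log2 ratios of -0.07, -0.26 and 0.14. Btg1 was under 2-fold with the floor at the 65th percentile and with an added constant.

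Biosynthetic groups lay slightly above 0 with almost no 2-fold member. Oxidative phosphorylation genes were above 0 for 33 of 36 members, with a median of 0.25, and cytosolic ribosomal protein genes for 20 of 21, with a median of 0.16 and a highest value of 0.36. Ribosome biogenesis genes and Myc targets were above 0 for 21 of 27 (median 0.32), led by Srm, the spermidine synthase gene, at 0.93. Cholesterol synthesis genes were above 0 for 11 of 13 (median 0.29), and Dhcr7, an enzyme of its last steps, was 2.24-fold higher. Dhcr7 was under 2-fold with the floor at the 65th percentile and with an added constant. Glycolysis genes had a median of 0.18 with 3 of 16 members higher, against 2.02% of all measured genes. Ldhb, a lactate dehydrogenase chain, was 306 in DN2 and 1569 in DN3, 5.13-fold, while Ldha was 10981 and 15396. Pfkp and the lactate transporter gene Slc16a1 were at least 2.63-fold and 2.05-fold higher, though Pfkp was under 2-fold with an added constant and with the mean over probe sets. With the floor at the 65th percentile Pfkp and Slc16a1 had log2 ratios of 0.02 and 0.00.

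**Figure D3:**
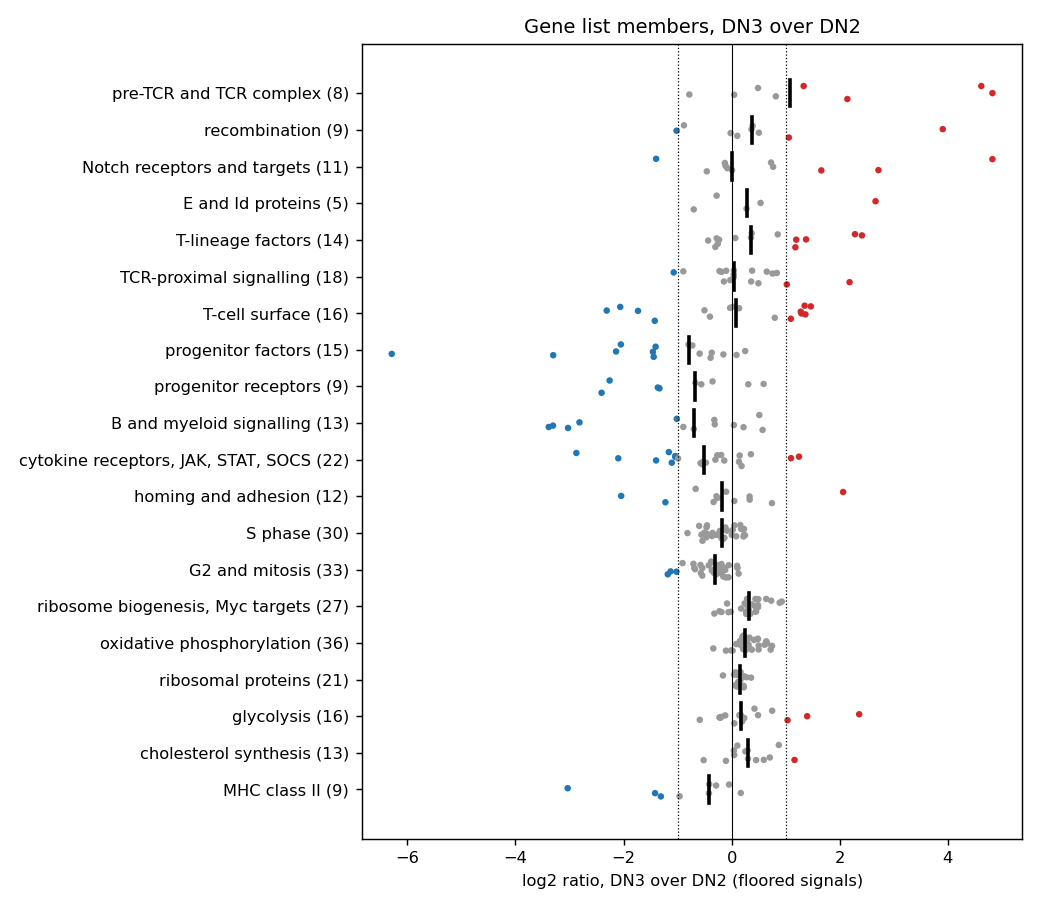
Log2 ratio of DN3 over DN2 for the members of 20 gene lists that were above the floor on either array, with their number in brackets. Each point is a gene, red at least 2-fold higher and blue at least 2-fold lower, the thick bar is the list's median and the dotted lines mark 2-fold. The receptor complex has a median of 1.07 and the progenitor factors one of -0.80, while ribosomal protein genes lie close together at 0.16.

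Further genes stood among the largest differences, some of them markers of other cell types. In DN3, Gzma, a granule protease of killer cells, was 2902 against 349 in DN2, 8.30-fold higher, by a probe set with the shared suffix _s_at. Nrp1, a receptor for semaphorins and VEGF, was 987 against 130, at least 7.57-fold, and at least 1.61-fold by its dimmer probe set. Fbln2, an extracellular matrix gene, was 716 against 105, at least 5.49-fold. Spats2, Pld4 and Endou were 5.01-fold, 4.37-fold and 4.16-fold higher. Endou went on to 3565 in preDP and 8819 in DP, whereas Pld4 was 117 and 69.6 there. Rgs14, a regulator of G protein signalling, Sit1, a transmembrane adaptor of T cells, and Prkcb, a protein kinase C gene, were 3.76-fold, 3.45-fold and 3.39-fold higher. Sh2d1a, the adaptor SAP, Hspb11 and Bcat1, a branched-chain aminotransferase, were at least 4.18-fold, 4.50-fold and 3.64-fold higher.

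In DN2, the adhesion G protein-coupled receptor genes Adgrg3 and Adgrg1, neighbours on the chromosome, read 5005 and 5141. In DN3 they were 92.7 and 1193, at least 38.4-fold and 4.31-fold lower. Napsa, an aspartic protease, was 3172 and 10.5, at least 24.3-fold lower, and Cst7, a cystatin of immune cells, 2225 and 106, at least 17.1-fold. Cpa3, a mast cell protease gene also active in progenitors, was 4451 and 303, 14.7-fold lower, and at least 3.57-fold by its dimmer probe set. Lst1, Bex6 and Ifitm3 were 10.7-fold, 9.34-fold and 6.68-fold lower. The thrombin receptor gene F2r, the IGF-binding gene Igfbp4 and the tetraspanin gene Tspan4 were at least 8.35-fold, 8.82-fold and 7.06-fold lower. A dimmer F2r probe set read 148 and 222, the opposite direction, and the mean over probe sets gave F2r a log2 ratio of -0.83. A plain Igfbp4 probe set read 272 and 83.6, at least 2.09-fold lower, and another was under the floor on both arrays. Fgf3, a growth factor gene, was 873 in DN2 and at most 176 on any other array.

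Markers of other cell types were read on both arrays. In such bulk RNA fewer cells of a type and less RNA per cell cannot be told apart. The 21 myeloid markers summed to 146176, 4659 and 1534 in DN1, DN2 and DN3, and 8 of them were above the floor in DN2 and 2 in DN3. Most of the DN2 sum came from Mpo (1488 and 14.1 in DN3) and Tyrobp, while S100a8 was 143 and S100a9, Ngp, Elane and Csf1r were at or under the floor. Mpo was read by a shared _s_at probe set, and its plain probe set was under the floor on both arrays (79.6 and 29.7). The 12 dendritic markers summed to 7572 in DN2 and 4314 in DN3, with 10 and 6 above the floor. MHC class II genes, some of them in that list, were lower for 3 of 9, with a median of -0.42 (-1.06 with the floor at the 35th percentile). Over all measured genes 3.94% were lower. Cd74, the invariant chain, was 1425 in DN2 and 174 in DN3, and 45515 in DN1.

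The 16 B-lineage markers summed to 5411 in DN2 and 6427 in DN3, with 8 and 6 above the floor and Cd79a, Ms4a1 and Ebf1 under it on both. Ighm made up most of that sum, at 3009 and 4110 by a shared _s_at probe set. Other Ighm probe sets were not higher in DN3, at 1799 and 1693 and at 185 and 86.1. The 13 mast cell markers summed to 6411 and 910, and 4 and 3 of them were above the floor. Cpa3 made up most of that sum and Kit, also listed, much of the rest, and Fcer1a, Ms4a2 and Mcpt4 were at or under the floor on both arrays. The 15 natural killer and innate markers summed to 1624 and 3447, with 3 and 2 above the floor. Gzma accounted for the higher value, while Klrd1, Ncr1, Prf1 and Gzmb were under the floor on both. Erythroid and megakaryocyte markers summed to 1460 and 591, with 4 and 1 of 11 above the floor, and the haemoglobin gene Hbb-b2 was 570 and 3.33. All 3 measured of 6 markers of mature single-positive cells on the array, Cd52, Itgb7 and Il7r, were lower in DN3. The 13 stromal markers summed to 1252 and 1552, with 2 and 4 above the floor.

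The DN1 array had the highest myeloid, dendritic and B-lineage sums and gives a scale for lower genes of those lists. It gives none for the mast cell list, which holds Cpa3 and Kit, since that sum was 3018 in DN1 and 6411 in DN2. Of the 193 genes lower in DN3, 90 had a DN2 signal at or above that in DN1, 97 one between 10% of DN1 and DN1, and 6 one under 10%. The 6 were Igha, H2-Aa, H2-Eb1, Igkv6-23, Cd74 and S100a4. Lyl1, Nfe2, Cpa3, Kit and Adgrg1 in DN2 were at 139%, 251%, 481%, 115% and 184% of their DN1 signal, and Mpo and Tyrobp at 18.9% and 15.6%. Without the listed markers of other cell types and immunoglobulin genes, 98 genes were higher and 179 lower. The part of admixed cells in single genes was not tested.

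**Figure D4:**
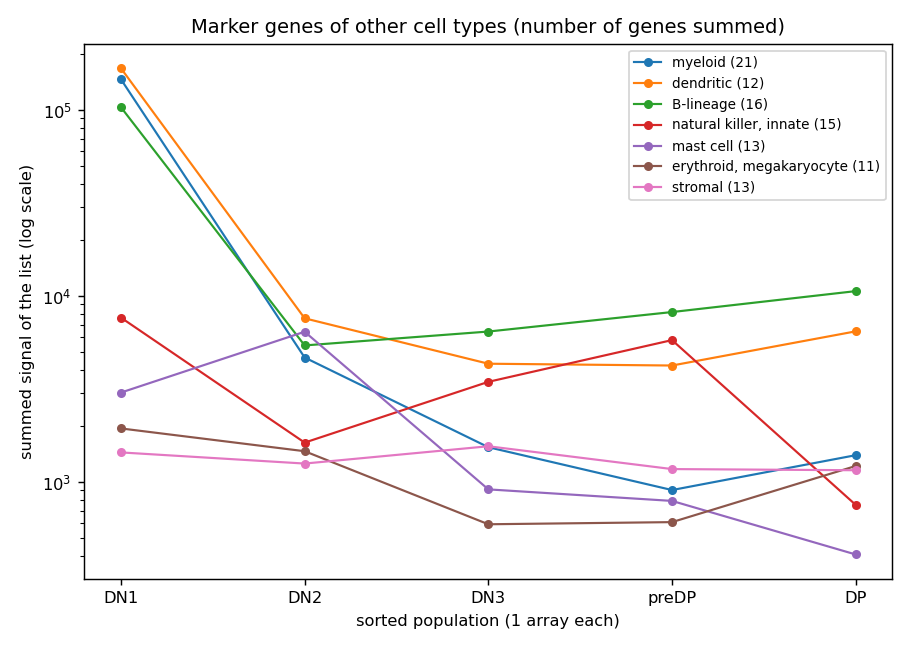
Summed signal of marker genes of 7 other cell types on the 5 arrays, log scale in arbitrary units, with the number of genes summed in brackets. DN1 is highest for the myeloid, dendritic and B-lineage lists, and between DN2 and DN3 the mast cell sum goes from 6411 to 910 and the natural killer and innate sum from 1624 to 3447.

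The arrays not used in the comparison were read for the same genes. PreDP against DN1 and DP against DN1 share no array with DN3 against DN2, though they share DN1 with each other. Of the 99 genes higher in DN3, 95 were above the floor in preDP or DN1, and 51 of these (53.7%) were at least 2-fold higher in preDP than in DN1 and 8 lower. The background, all 5196 genes above the floor in preDP or DN1, was 10.7% higher and 12.7% lower. Among 4456 of the genes under 2-fold in DN3 against DN2, the shares were 11.2% and 8.24%. Of the 193 lower genes 191 were measured, and 135 (70.7%) were lower in preDP than in DN1 and 3 higher. In DP against DN1, where 11.9% of 5211 genes were higher and 13.9% lower, 54 of 90 genes (60.0%) were higher and 122 of 190 (64.2%) lower. Among 4425 of the genes under 2-fold in DN3 against DN2, 11.6% were higher and 10.1% lower in DP than in DN1. The DN1 array is also the array with the highest myeloid, dendritic and B-lineage sums, and their part in these counts was not tested.

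By array, 33 of the 99 higher genes had their highest signal in DN3, 47 in DP, 15 in preDP and 4 in DN1. Dtx1, Ptcra, Notch3, Itgb4 and Ly6d were highest in DN3, and Rag1, Zap70, Ldhb, Ets2 and Endou in DP. Of the 193 lower genes 97 were highest in DN1 and 81 in DN2, among the latter Lyl1, Nfe2, Cpa3, Kit, Adgrg1 and Fgf3. The other 15 were highest in preDP or DP. Above the floor were 190 of the lower genes in DN1, 134 in DN3, 122 in preDP and 106 in DP.

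**Figure D5:**
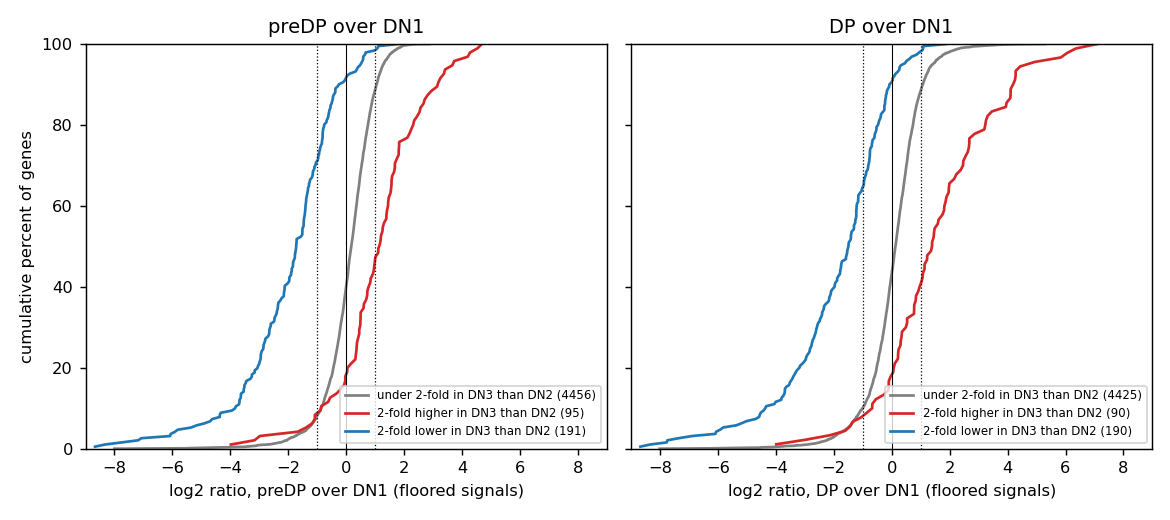
Cumulative percent of genes against their log2 ratio of preDP over DN1 (left) and DP over DN1 (right), for genes 2-fold higher, 2-fold lower or under 2-fold in DN3 against DN2, with the number of genes in brackets and dotted lines at 2-fold. The median for the higher genes is 1.16 in preDP over DN1 and 1.39 in DP over DN1, and for the lower genes -1.73 and -1.49.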

How the data were processed

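Each sorted population gave RNA for 1 Affymetrix array. The authors deposited linear signal intensities, 1 per probe set. Their processing notes name 2 tools, Affymetrix Expression Console (version 1.0) and MAS5. How these were set is not stated in the labels. Every array had a 2% trimmed mean of 500.3 to 500.4, so they were scaled to 1 level, and cells with more or less mRNA overall would not show. From DN2 to DN3 the 3' to 5' signal ratio went from 3.08 to 3.31 for actin and from 1.70 to 1.76 for Gapdh.

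Of 12488 probe sets, 66 were controls, 10855 had 1 gene symbol, 396 several and 1237 none by the platform's annotation. Only those with 1 symbol that were not controls were used, and 10839 with 1 symbol matched the RefSeq gene table of GRCm38.p6 by gene identifier. For the 2073 genes with several probe sets, the brightest was used, judged by its mean log2 signal over the 5 arrays after flooring. Ratios were log2 of floored signals, computed with Python 3.11.15, and the counting step was tested on simulated data. The lists held 714 genes, of which 568 were on the array. A probe set's brightness differs between genes, so signals of different genes are not levels to rank.

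The naming rule took Ptcra, Cd3d, Rag1, Lyl1, the sort genes, and the 15 highest and lowest ratios among genes above the floor on both arrays. It also took the 10 brightest in each direction with the other value at or under the floor, and up to 6 members 2-fold apart per list. Every measured member of 5 lists could be named too (receptor complex, recombination, Notch, E and Id proteins, progenitor factors). Some genes of the rule, among them Scin, Ptgr1, Scx and Myzap, are not printed above. Members outside that rule, such as Cd28, Pdcd1, Cd8b1, Thy1 and members under 2-fold, were chosen after their values were seen. The comparison, lists and named genes were chosen with earlier results of these data known. Alternatives were floors at the 35th and 65th percentile, a constant of 100 added in place of a floor, quantile normalisation, scaling to an equal median, the mean over probe sets and plain _at probe sets alone.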

Additional observations from a re-analysis of the deposited data

Results flagged for a closer look

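Probe sets without a single gene symbol entered no comparison, and, controls apart, 600 of these 1589 were above the floor on either array. Among these 600, 9 passed 2-fold upward in DN3 and 29 downward, beside 99 (2.02%) and 193 (3.94%) of the 4894 measured genes. The probe sets without a single symbol were singled out because they carry signal that the named genes leave out. The largest difference upward was from a signal of 730 in DN2 to 5258 in DN3, and among the largest downward were 3901 to 154 and 2906 to 20.5, the latter under the floor. Their genes were not named here, since the annotation gives several symbols for some of these probe sets and none for the others.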

How the results depend on the processing

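No paired analysis was possible because each population has 1 array. The direction of the comparison, more genes lower than higher, held under all 7 alternatives, but the counts moved with the floor. With the floor at the 35th percentile 209 genes were higher and 317 lower, and with the floor at the 65th percentile 51 and 101. The other 5 alternatives gave between 77 and 109 higher and between 149 and 179 lower. Of the 99 genes 2-fold apart that the naming rule took, none changed direction. For a given probe set a moved floor or an added constant cannot reverse the order of 2 signals, so this was largely fixed in advance. Some, such as Atm, Cd34 and Ctla4, were level under the higher floor. Under the higher floor 40 were under 2-fold, with the added constant 19, with probe sets averaged 12, and after quantile and median scaling 6 and 4. With plain probe sets alone 4 of the 98 with a value were under 2-fold, among them Mpo at a log2 ratio of 0.00. Some list medians moved by over 0.44, a limit taken from single genes and not the spread of a median. The medians as first computed were 0.08 for T-cell surface genes, -0.42 for class II genes, -1.58 for mast cell markers, -2.04 for mature single-positive markers, 0.01 for Notch genes, -0.22 for myeloid markers, -0.70 for natural killer and innate markers, 1.07 for the receptor complex and -0.80 for progenitor factors. With the lower floor they were 0.62 for T-cell surface genes, -1.06 for class II genes, -0.75 for mast cell markers and -1.54 for mature single-positive markers. With the higher floor they were 0.73 for Notch genes, -2.01 for myeloid markers, 1.11 for natural killer and innate markers and -2.85 for mast cell markers. The mean over probe sets gave -1.04 for mature single-positive markers. With plain probe sets alone the receptor complex had 1.59 and the natural killer and innate list -1.46. Without markers of other cell types, an alternative chosen after seeing the data, progenitor factors had a median of -1.41. The cause was not tested. Genes near the floor have no measured fold, and 1 array per population limits how precise any value is.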

Other observations

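A pair of sex-linked genes differed between the arrays, although all samples are labelled male. Xist, the RNA that silences an X chromosome in female cells, read 116, 145, 376, 262 and 6.98 in stage order (DN1, DN2, DN3, preDP, DP). The DN3 value was 2.59-fold that of DN2, and DP was lowest. Eif2s3y, a Y-linked gene, read 404, 450, 204, 225 and 857 and was 2.21-fold lower in DN3, by a probe set of a gene family (suffix _f_at). The DN3 and preDP arrays thus had the highest Xist and the lowest Eif2s3y values, and DP the reverse. The probe sets of Kdm5d and Uty, also Y-linked, were under the floor on all 5 arrays. Both genes were singled out after their values were seen, and no cause was tested.

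Plac8, a gene of unsettled function in immune cells, was among the brightest genes to differ. Its signals in stage order were 29209, 34340, 17001, 7509 and 247, and DN3 was 2.02-fold lower than DN2. Rgcc, a cell cycle regulator gene, went the other way, at 2089 in DN2 and 5176 in DN3. Both were chosen after their values were seen.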
